A study of Mus musculus with 11 samples.

Results

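The 10 T cell checkpoint and exhaustion genes Pdcd1, Ctla4, Lag3, Tigit, Havcr2, Tox, Cd160, Tnfrsf4, Tnfrsf9 and Icos were followed through single-cell RNA counts of dissociated mouse lung. They were taken by symbol from the 31053 genes of the matrices, and each symbol named 1 gene. The study holds 11 libraries of 4 genotypes, which the labels describe by the alleles of p21 (gene Cdkn1a, an inhibitor of the cell cycle). WT (+/+) has 1 library, p21Het (p21 heterozygote, +/-) has 3, p21mTert (+/mTert) has 5 and p21mTertCD (+/mTertCD) has 2. The p21Het, p21mTert and p21mTertCD mice therefore share 1 normal p21 allele and differ in the other one. mTert is the mouse telomerase reverse transcriptase, and the series title speaks of its induction in p21-positive cells; the labels do not spell out what the CD form changes. The age labels give 18 months, apart from 19 for p21Het replicate 1 and 20 for p21mTert replicate 1, whose titles say 18; which is right is not known here. WT and those replicates form a first deposit, while the remaining 8 libraries were added later. The labels do not say that each library is 1 animal, so that p-values measure the spread between libraries, whatever its source.

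T cells take their instructions from the antigen receptor together with a second set of surface receptors. Pdcd1 (PD-1), Ctla4, Lag3, Tigit, Havcr2 (TIM-3) and Cd160 encode receptors that mostly restrain the cell, while Icos, Tnfrsf4 (OX40) and Tnfrsf9 (4-1BB) encode receptors that stimulate it. Most of them appear after activation, and regulatory T cells, which are marked by the transcription factor Foxp3, carry several of them at all times. When antigen persists, CD8 T cells can hold many inhibitory receptors at once, a state called exhaustion, in which the nuclear factor Tox takes part. In ageing tissues, CD8 T cells that make granzyme K (Gzmk) together with Pdcd1 and Tox are known to accumulate. Several members are also known outside T cells, among them Havcr2 in dendritic cells and macrophages and Cd160 in natural killer (NK) cells.

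The upstream sequences of Ctla4, Tnfrsf4 and Pdcd1 are shown because the levels of the first pair set the Foxp3 cells apart and Pdcd1 defines a comparison below. Each is the 250 bases before the annotated start, on the strand of the gene, from RefSeq (GRCm38.p6). Ctla4 lies at chr1:60908775-60909024 (+), Tnfrsf4 at chr4:156013445-156013694 (+) and Pdcd1 at chr1:94052554-94052803 (-). Capitals mark TTTCC, the complement of GGAAA, a core motif of NFAT and NF-κB family sites, which was searched on both strands.
Ctla4: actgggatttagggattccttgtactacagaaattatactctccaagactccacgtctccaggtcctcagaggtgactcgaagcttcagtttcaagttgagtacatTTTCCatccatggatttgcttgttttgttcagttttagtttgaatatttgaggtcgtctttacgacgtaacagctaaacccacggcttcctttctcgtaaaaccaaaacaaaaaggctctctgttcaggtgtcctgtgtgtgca
Tnfrsf4: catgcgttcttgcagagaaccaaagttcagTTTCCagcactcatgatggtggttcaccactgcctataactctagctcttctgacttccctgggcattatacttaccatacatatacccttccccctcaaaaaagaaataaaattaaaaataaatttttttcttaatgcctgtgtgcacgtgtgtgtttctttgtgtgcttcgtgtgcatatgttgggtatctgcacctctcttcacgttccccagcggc
Pdcd1: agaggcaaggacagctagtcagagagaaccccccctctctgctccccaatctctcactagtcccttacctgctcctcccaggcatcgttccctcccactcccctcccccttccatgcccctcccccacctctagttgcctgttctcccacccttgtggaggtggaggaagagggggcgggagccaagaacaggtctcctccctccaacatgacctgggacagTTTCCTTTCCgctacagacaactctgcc
The motif began 144 bases before the start of Ctla4, 220 before that of Tnfrsf4, and 28 and 23 before that of Pdcd1. It was present in 7 of 9 windows of the 7 members with an entry, and in 55.6% of all 32851 windows of that length, so that its presence is a description and marks no site.

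Barcodes with 1000 to 30000 UMIs (unique molecular identifiers, 1 for each captured RNA molecule) and at most 14% mitochondrial UMIs were kept, as the series describes. This left 69267 of 81983 barcodes, 4721 to 8525 in a library, with 36248337 to 67722156 UMIs each. Libraries of the later deposit were deeper, with a median of 5122.5 to 6454 UMIs a cell against 4133 to 4420 before. Any pair of libraries shared 4 to 20 barcodes. A cell took 1 of 20 classes where 5 marker genes of the class held at least 3 UMIs and at least 2 times those of every other class. T cells, marked by Cd3d, Cd3e, Cd3g, Trac and Trbc2, numbered 12107, or 616 to 2164 in a library. Only 103 of them rested on 3 or 4 marker UMIs. A further 1652 cells led by T markers were left out because another class came too close. Of these, 390 were in p21mTertCD replicate 2, beside 1006 T cells kept there, and 66 to 212 in each other library. The CD8 gate (Cd8a or Cd8b1, no Cd4 or Foxp3) held 4603 T cells, the CD4 gate (Cd4, no Cd8a, Cd8b1 or Foxp3) 2940, the Foxp3 gate (Foxp3, no Cd8a or Cd8b1) 596 and the Trdc gate (the γδ receptor gene Trdc, none of the others) 645. The other 3323 T cells showed none of these genes or a mixture. Levels are in CPM, the gene's UMIs divided by all UMIs of the cells summed and multiplied by 1000000. They are compared between cells and libraries and not between genes.

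One library stood apart before any comparison of genotypes. In p21mTertCD replicate 1, T cells were 33.0% of the kept cells, against 11.3% to 20.8% in the other 10 libraries. B cells were 1.51%, against 11.2% to 37.8%, and among cells other than B cells the T cells were 33.5%, against 15.5% to 29.6%. The Foxp3 gate was 1.25% of its T cells, against 2.92% to 9.57%. A Gzmk UMI was found in 75.7% of its CD8 cells and in 10.3% to 42.9% of those of the other libraries. With each cell thinned to 3000 UMIs these shares of CD8 cells were 54.9% and 5.45% to 30.3%. All 10 members were higher in its CD8 cells than in the CD8 cells of any other library. In the CD4 cells 4 members were (Pdcd1, Havcr2, Tnfrsf4 and Tnfrsf9), in the Foxp3 cells none. How many of all genes were highest in this library was not counted. In the CD8 gate of this library the summed markers of C1q macrophages were at 12.6 CPM (1.87 to 6.79 in the other libraries), of alveolar macrophages at 372 (7.31 to 342) and of NK cells at 193 (39.2 to 185), and their part in these levels was not tested. Levels given by class below are sums over all 11 libraries. For the members, the sum without this library is given too where it differs by over 1.5 times or changes a stated order. That alternative was chosen after seeing the data, and it was not computed for the ligands.

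The inhibitory receptors fell into different classes of cells. Pdcd1 was highest in Trdc T cells (168.7 CPM in all libraries summed, 43.3% of cells with a UMI). CD4 cells held 119, Foxp3 cells 101, group 2 innate lymphoid cells (ILC2) 100.03 and CD8 cells 29.1. The order of these rests on p21mTertCD replicate 1, which gave 1216 of the 2149 Pdcd1 UMIs of CD4 cells: without it CD4 cells held 71.0, below Foxp3 cells (101) and ILC2 (92.3), and CD8 cells 19.2. The Trdc level ran from 91.3 to 255 over the 10 libraries with at least 20 such cells and the CD4 level from 27.6 to 248 over 11, so that these neighbours overlap. Pdcd1 was near 0 in B cells (0.299), which are taken here to show free RNA. That background says little of p21mTertCD replicate 1, whose 99 B cells had 0 Pdcd1 UMIs, which allows up to 4.37 CPM. Its neutrophils held 8.02, from 27 UMIs in 10 of 824 cells, against 0.24 in the neutrophils of the other libraries. Thinned to 1000 UMIs a cell, a Pdcd1 UMI remained in 14.7% of ILC2, 11.6% of Trdc, 11.4% of Foxp3, 10.0% of CD4, 3.32% of CD8 and 0.0204% of B cells. The ILC2 value is 17 of only 116 cells, with 5 to 20 ILC2 in a library, so its place in the order is loose. Without p21mTertCD replicate 1 a Pdcd1 UMI remained in 6.75% of CD4 and 2.17% of CD8 cells.

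Ctla4, which takes the B7 ligands away from the stimulatory receptor Cd28, was highest in Foxp3 cells, at 1145 CPM with a UMI in 93.3% of cells. Its lowest Foxp3 library (879.6) was above its highest CD4 library (341). CD4 cells held 234 and CD8 cells 39.9. Plasma cells, the antibody-secreting end of the B cell line, held 95.8, with 62.9 to 201 over the 10 libraries with at least 20 of them. In these plasma cells Foxp3 had 0 UMIs and Cd3e 1.38 CPM. B cells held 10.2. Plasma cells are deep (a median of 19258 UMIs, against 4086 in B cells), but after thinning a Ctla4 UMI remained in 7.13% of plasma and 0.502% of B cells, against 56.2% of Foxp3 cells.

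Lag3, a receptor for major histocompatibility class II, was highest outside the T cells. Plasmacytoid dendritic cells (pDC), the main makers of type I interferon, held 175 CPM and a Lag3 UMI in 67.2% of 186 cells. CD4 cells held 58.6, basophils or mast cells 39.1, Foxp3 cells 31.1 and CD8 cells 30.0. Of the 1073 Lag3 UMIs of CD8 cells, 706 came from p21mTertCD replicate 1, and without it CD8 cells held 12.7, CD4 cells 51.4 and Foxp3 cells 31.6. The 3 libraries with at least 20 pDC held 149.5 to 242, above the highest CD4 library at 117. Havcr2 was likewise a gene of myeloid cells here: type 1 conventional dendritic cells (cDC1) held 192, patrolling monocytes 125, cDC2 73.3, alveolar macrophages 60.1 and C1q macrophages 50.9. The lowest cDC1 library (166) was above the highest library of patrolling monocytes (153). Among T cells, Havcr2 was at 24.9 in CD4 and 10.8 in CD8 cells, but p21mTertCD replicate 1 gave 375 of 449 and 298 of 387 of these UMIs. Without it the levels were 5.63 and 3.08, and no other library exceeded 8.64 in CD4 or 8.42 in CD8 cells. Cells outside the T class gave 91.9% of all Havcr2 UMIs, and 97.7% without that library.

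Tigit, which competes with Cd226 for the ligand Pvr, was sparse. Foxp3 cells held 16.7 CPM (58 UMIs), CD4 cells 8.70, NK cells 5.54 and CD8 cells 5.37 (3.43 without p21mTertCD replicate 1), and the libraries of these classes overlapped. Cd160, a receptor for Tnfrsf14, was highest in NK cells (60.3), with 24.5 to 95.5 over libraries, and second in CD8 cells (31.6, 15.1 to 59.9). CD4 cells held 8.59 and Foxp3 cells 1.73.

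Of the stimulatory receptors, Icos was spread over most lymphoid classes: Foxp3 cells held 569 CPM, CD4 364, the other T cells 320, Trdc 278, ILC2 242 and CD8 77.7. Tnfrsf4 was concentrated in Foxp3 (841) and CD4 cells (316). Mature dendritic cells, which carry antigen to lymph nodes, held 116 and CD8 cells 7.88, or 4.37 without p21mTertCD replicate 1. A Tnfrsf4 UMI was seen in 45.1% of the mature dendritic cells and, after thinning, in 12.8% of them against 1.11% of CD8 (0.488% without that library) and 0.122% of B cells. Tnfrsf9 was highest in Foxp3 cells (133), mature dendritic cells (94.8) and NK cells (71.4), whose library ranges overlapped.

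Alveolar type 2 cells (AT2), which make surfactant, held 23.4% of all Tnfrsf9 UMIs, at 14.8 CPM. Their Tnfrsf9 level ranged widely between libraries. It was 1.81 in WT, 8.24, 41.1 and 6.02 in p21Het replicates 1 to 3, 12.4, 2.27, 12.8, 13.2 and 1.38 in p21mTert replicates 1 to 5, and 43.7 and 6.83 in the p21mTertCD replicates. The highest libraries were 1 of p21Het and 1 of p21mTertCD, so that the genotypes overlap. The gene Camta1 overlaps Tnfrsf9 on the other strand, and the sources used here do not say whether counting used the strand.

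Tox was highest in Foxp3 (157), CD4 (134), Trdc (101) and CD8 cells (80.0), followed by the other T cells (74.5), ILC2 (54.2) and NK cells (38.8). Without p21mTertCD replicate 1 CD8 cells held 68.2, below the other T cells at 70.2. Neighbouring T cell gates in this order overlapped between libraries, while the lowest Foxp3 library (131) was just above the highest CD8 library (129). B cells held 1.40 and AT2 cells 9.19.

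**Figure D1:**
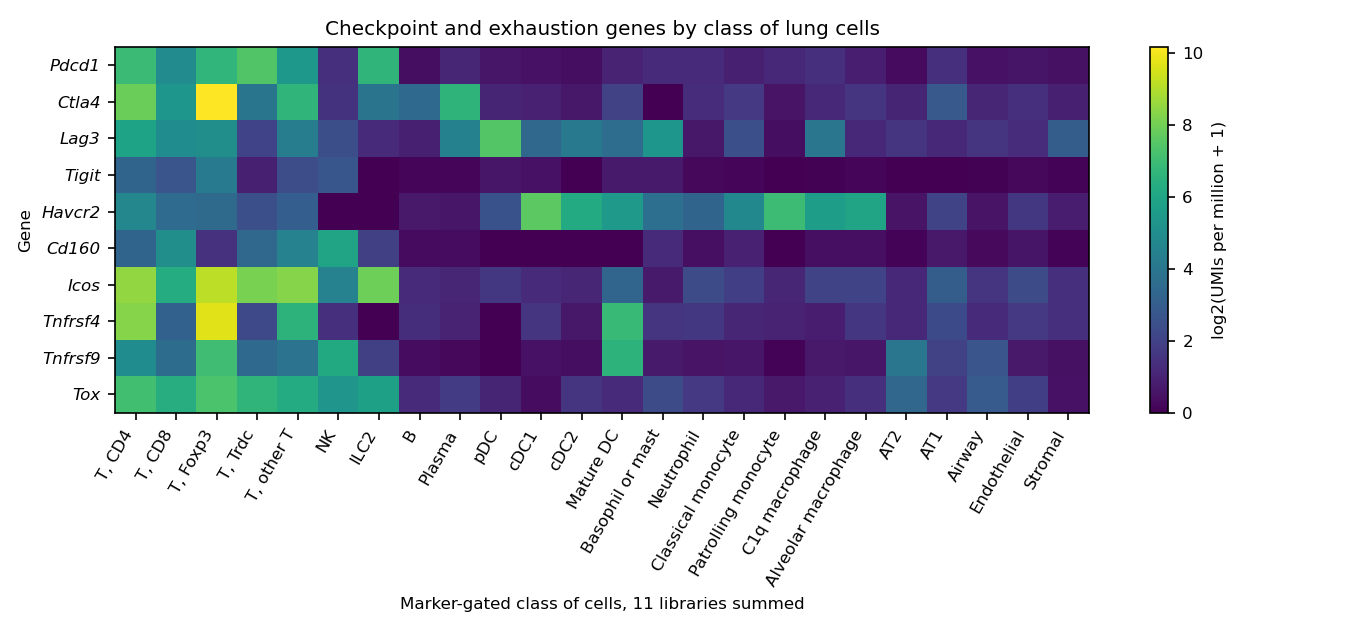
Level of each member (rows) in 24 marker-gated classes of cells (columns), as log2(CPM + 1) of the 11 libraries summed. The members are bright on the left, in the T cell gates, while Havcr2 is brightest in cDC1 (192 CPM) and Lag3 in pDC (175).

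Across the 24 classes, the genes with profiles most like the members, by Pearson r of log2(CPM + 1), were Camk4 (0.969) and Bcl11b (0.966) for Pdcd1 and the same pair for Icos (0.974 and 0.971). For Tox they were Trbc2 (0.949) and Cd96 (0.947), for Cd160 Fasl (0.980) and Klrc1 (0.976), for Tigit Sh2d1a (0.928), for Tnfrsf4 Slamf1 (0.884), for Ctla4 A630023P12Rik (0.860), for Havcr2 Nlrp1b (0.840), for Tnfrsf9 Nipal1 (0.802) and for Lag3 Slc7a5 (0.685). The classes share their libraries, and Trbc2 is one of the genes that defined the T class.

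Of the 13 ligands on a fixed list, 7 were highest in mature dendritic cells. Cd274 (PD-L1) was at 196 CPM there and at 184 in alveolar macrophages, and Pdcd1lg2 (PD-L2) at 50.9. The Ctla4 ligands Cd80 and Cd86 were at 132 and 235, the Tigit ligand Pvr at 96.1, the Tnfrsf4 ligand Tnfsf4 at 8.92 and Icosl at 148. Tnfsf9, the ligand of Tnfrsf9, was highest in cDC2 (187). The Havcr2 ligand Lgals9 was highest in endothelial cells (141), Ceacam1 in patrolling monocytes (389.8), and Nectin2 and the Lag3 ligand Fgl1 in AT2 cells (95 and 7.21). Tnfrsf14 was low in all classes, at most 3.75, in pDC. The ligand levels were not computed without p21mTertCD replicate 1, so whether their order holds without it is not known here.

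Within a library, CD8 cells had less Pdcd1, Ctla4 and Icos than CD4 cells. Tox was lower too, but its call depended on which libraries were kept. Its difference was 0.002 when CD4 cells with a UMI of the regulatory T cell genes Il2ra or Ikzf2 were left out. Both gates come from the same libraries, so edgeR's quasi-likelihood test was run on UMIs summed by gate with the library as a block, and genes with a Benjamini-Hochberg adjusted p under 0.05 were called. These 4 members passed edgeR's filter on low counts (4.52 CPM in as many gates as there are libraries) in either gate alone. All 4 were called lower in CD8 cells, while 17.2% of all 8831 genes tested were called lower and 16.8% higher. Lag3, Tnfrsf4, Tnfrsf9 and Cd160 passed the filter only through the gate where they are higher and Tigit only through both together. Such members had to differ to be tested, so that their fits are a description here and in the comparisons below. Tnfrsf4 had a log2 fold change of -5.32 ± 0.26 (SE) and an adjusted p of 3.75e-08. Its level was 1.70 to 22.6 (median 5.00) over the CD8 gates and 107 to 460 (median 248) over the CD4 gates, with no overlap. Ctla4 was lower by -2.55 ± 0.25, at 19.7 to 69.2 (median 39.2) against 153 to 341 (median 251). Icos was lower by -2.19 ± 0.15, at 46.3 to 117 (median 73.2) against 250.4 to 569 (median 375). These 3 genes did not overlap between the gates. Pdcd1 was lower by -1.68 ± 0.21 and lower in 11 of 11 libraries, though the ranges (6.63 to 70.2 and 27.6 to 248) overlap.

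Other members called lower were Lag3 at -1.19 ± 0.42 (adjusted p 0.0497 in edgeR), Tnfrsf9 at -1.13 ± 0.27, Tigit at -0.68 ± 0.25 and Tox at -0.59 ± 0.19. Of these, only Tox passed the filter in either gate alone. The fits and calls of Lag3, Tnfrsf9 and Tigit are a description, as given above. Lag3, Tigit and Tnfrsf9 were lower in 9 of 11 libraries and Tox in 10. Without WT replicate 1, p21mTert replicate 1 or 2, or p21mTertCD replicate 2, each left out alone, Tox, Lag3 and Tigit were not called. Tox and Lag3 were not called without p21mTert replicate 3 either. Lag3 was also not called without p21Het replicate 1 or 2, or p21mTert replicate 4 or 5. The same held for Tox without p21Het replicate 1, and for Tigit without p21Het replicate 2 or p21mTert replicate 4. When CD4 cells with a UMI of the regulatory T cell genes Il2ra or Ikzf2 were left out, Ctla4, Icos, Pdcd1 and Tnfrsf4 were called lower, and the differences of Lag3, Tnfrsf9 and Tox turned to 0.31, 0.13 and 0.00. Cd160 was the single member higher in CD8 cells, by 1.74 ± 0.35 (adjusted p 0.0023, edgeR). It passed the filter only through the CD8 gate, so that its fit too is a description. Its level was 15.1 to 59.9 (median 23.4) against 1.35 to 22.8 (median 9.63), and higher in CD8 cells in 10 of 11 libraries. Havcr2 was too low to be tested.

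The other genes of the pathway, from fixed lists, also divided the gates. Through which gate each list gene passed the filter was not looked at. Their differences are therefore a description, here and in the other comparisons within a library. Of 14 co-receptors tested, 8 were lower in CD8 cells, led by Cd40lg (-4.41), the T cell help ligand, Cd200 (-3.33) and Btla (-1.49), and 1 was higher (Klrg1, 1.47). Of 11 effector genes 7 were higher, with Gzma (4.80), Ccl5 (2.82) and Ccl4 (2.53) in front, and Tnf (-1.26) and Cxcr6 (-1.24) were lower. Among the transcription factors 11 of 19 were lower, with Maf at -2.68 and Tox2 at -2.60, and 5 were higher, with Eomes at 1.64.

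Foxp3 cells held more Ctla4, Tnfrsf4 and Icos than the CD4 cells of the same library. These are 3 of the 5 members that passed the filter in either gate alone, and no member was called lower. Tnfrsf9 passed it only through the Foxp3 gate, and Lag3 only through both together. The test used the 10 libraries with at least 20 cells in each gate, leaving out p21mTert replicate 5 with 18 Foxp3 cells, and called 10.0% of 6076 genes higher and 9.92% lower. Tnfrsf9 was higher by a log2 fold change of 2.43 ± 0.19, at 78.0 to 194 (median 136) against 9.03 to 56.9 (median 21.3). Ctla4 was higher by 2.08 ± 0.16, at 879.6 to 1733 against 168 to 341. Tnfrsf4 was higher by 1.56 ± 0.17, at 648.5 to 1035 against 107 to 460. For these 3 genes every Foxp3 gate lay above every CD4 gate. Icos was higher by 0.43 ± 0.08, also in 10 of 10 libraries, but its ranges (350.4 to 816 and 250.4 to 569) overlap.

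Pdcd1 and Tox did not pass the test between Foxp3 and CD4 cells (0.27 ± 0.31, adjusted p 0.63, and 0.19 ± 0.12, adjusted p 0.33, edgeR). Lag3 was at 11.2 to 52.5 in Foxp3 and 9.43 to 117 in CD4 cells, with a log2 fold change of -0.77 ± 0.27 and an adjusted p of 0.058. It was called lower when p21Het replicate 1, 2 or 3 was left out, and turned to 0.71 (adjusted p 0.22) when CD4 cells with an Il2ra or Ikzf2 UMI were left out. Pdcd1 then passed, at 1.03, and Tox at 0.78. The count of 0 lower members had 1 member (Lag3) at an unadjusted p under 0.05, and DESeq2 called 0 lower. Tigit, Cd160 and Havcr2 were too sparse to test; Tigit was higher in Foxp3 cells in 10 of 10 libraries, on 56 UMIs against 152. On the lists, Klrg1 (4.38), Tnfrsf18 (GITR, 1.39), Cd27 (0.66) and the regulatory T cell factor Ikzf2 (2.71) were higher in Foxp3 cells, while 6 of 8 effector genes, among them Ifng (-3.16), and 7 of 8 genes of naive T cells, among them Tcf7 (-1.97), were lower.

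**Figure D2:**
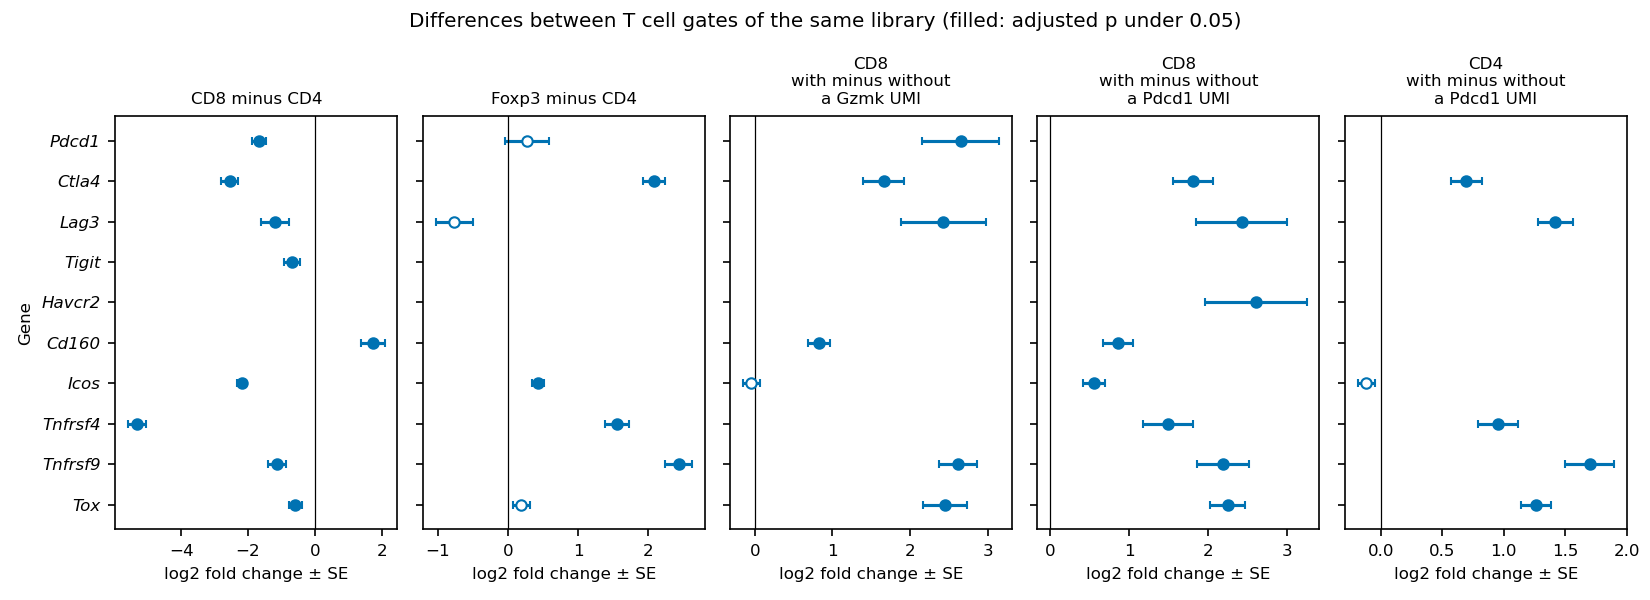
log2 fold change (x axis, with SE) of each member (y axis) between gates of the same library, from edgeR, in 5 comparisons. Filled points have an adjusted p under 0.05, members too low to be tested have no point, Pdcd1 is left out where it defined the gate, and each panel has its own scale.

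CD8 cells with a Gzmk UMI held more Tox, Ctla4 and Cd160 than CD8 cells without one. These are 3 of the 4 members that passed the filter in either set of cells alone, the other being Icos. Pdcd1, Lag3 and Tnfrsf9 passed it only through the cells with Gzmk. In this comparison 14.4% of 7734 genes were called higher and 13.9% lower. Pdcd1 was higher by a log2 fold change of 2.65 ± 0.50 (adjusted p 0.0021), at 41.6 to 146 (median 82.7) against 1.47 to 71.4 (median 7.99), in 10 of 11 libraries. Tnfrsf9 was higher by 2.61 ± 0.25, at 11.1 to 47.4 (median 29.8) against 1.32 to 14.7 (median 2.82). Tox was higher by 2.45 ± 0.28, at 122 to 416 (median 231) against 23.4 to 101 (median 32.4), and here the ranges did not overlap. Lag3 was higher by 2.43 ± 0.55 (37.5 against 5.28 in the median library), Ctla4 by 1.66 ± 0.26 (78.1 against 23.4) and Cd160 by 0.82 ± 0.14 (47.4 against 18.3), each in 11 of 11 libraries.

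Icos did not pass the test between these cells (-0.04 ± 0.11, adjusted p 0.83 in edgeR) and was higher with Gzmk in 6 of 11 libraries. Havcr2, Tigit and Tnfrsf4 were too low to be tested, with 316, 142 and 148 UMIs in the 1513 cells with Gzmk and 71, 50 and 134 in the 3090 cells without. The cells with Gzmk were the shallower ones in 10 of 11 libraries, with a median of 5654 UMIs against 7975 in the median library. Without p21mTertCD replicate 1 Tox, Ctla4 and Cd160 were again called. So were Pdcd1 (3.32), Lag3 (3.17) and Tnfrsf9, whose fits are a description as above. In that library the cells without a Gzmk UMI also carried Pdcd1, at 71.4, above the 69.9 of its cells with one. All 8 genes of naive T cells were lower in the cells with Gzmk, led by the lymph node homing receptor Ccr7 (-3.57) and by Satb1 (-2.61). Of 10 effector genes other than Gzmk 8 were higher, among them Ccl3 (2.46), Ccl4 (2.26), Gzma (2.21) and Ifng (1.80). The factors Maf (2.87), Nr4a2 (2.19), Eomes (1.75) and Irf4 (1.49) were higher, and Lef1 (-2.01), Bach2 (-1.21) and Tcf7 (-1.08) were lower.

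Cells with a Pdcd1 UMI held more Tox than cells without one, in both gates. Ctla4 was higher too, but in CD4 cells it was not called once cells with an Il2ra or Ikzf2 UMI were left out (0.33, adjusted p 0.82, edgeR). Among CD8 cells, 600 with a Pdcd1 UMI were compared with 3771 without, over the 10 libraries with at least 20 such cells (p21Het replicate 1 was left out). The 4 members that passed the filter in either set of cells alone (Ctla4, Tox, Cd160 and Icos) were all higher in the cells with Pdcd1, with 7.07% of 8553 genes called higher and 6.93% lower. Havcr2, Lag3 and Tnfrsf9 passed it only through the cells with Pdcd1, Tnfrsf4 only through both together, and Tigit was too low to be tested. Havcr2 had a log2 fold change of 2.60 ± 0.65 (adjusted p 0.022, edgeR), at 10.7 to 63.3 (median 24.2) against 0.79 to 40.1 (median 1.35). Lag3 was higher by 2.43 ± 0.57, at 22.9 to 160 (median 72.8) against 0.91 to 88.4 (median 7.16), and Tox by 2.25 ± 0.22, at 152 to 588 (median 294) against 30.6 to 93.2 (median 57.6). Tnfrsf9 (2.19 ± 0.33), Ctla4 (1.81 ± 0.25), Tnfrsf4 (1.49 ± 0.32), Cd160 (0.86 ± 0.19) and Icos (0.55 ± 0.14) followed.

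The direction in CD8 cells was the same in 10 of 10 libraries for Havcr2, Lag3, Tox, Tnfrsf9, Ctla4 and Tnfrsf4, and in 9 of 10 for Cd160 and Icos. The Pdcd1 cells were shallower than the rest in 10 of 11 libraries. With a gate of 4 times every other class, chosen after seeing the data, 5 members were called (Ctla4, Cd160, Tox, Tnfrsf9 and Tigit). Havcr2 (1.70, edgeR adjusted p 0.099), Lag3 (1.82, adjusted p 0.15) and Icos (0.32, adjusted p 0.34) were not. No share of all genes called is given for that gate, so its count is a description. With 1 library left out at a time, 6 to 9 members were called. Of all genes tested, 19.2% were called in either direction without p21mTertCD replicate 1 and 11.9% without p21mTertCD replicate 2. Havcr2 was not called without WT replicate 1, p21Het replicate 3, or p21mTert replicate 4 or 5 (edgeR adjusted p 0.052, 0.051, 0.060 and 0.056), and Lag3 not without p21mTert replicate 4 (0.051). Without p21mTertCD replicate 1 the difference of Havcr2 was 3.80, and Tnfrsf4 was too low to be tested. Of the transcription factors 10 of 19 were higher, with Tox2 at 2.78, Maf at 2.57 and Nr4a2 at 1.85, and all 8 naive genes were lower.

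In CD4 cells, 940 with a Pdcd1 UMI held more Ctla4, Tox and Tnfrsf4 than 1854 without, 3 of the 4 members that passed the filter in either set alone, over 10 libraries (p21Het replicate 1 was left out for having under 20 such cells), against 5.87% of 6115 genes called higher and 6.70% lower. Lag3 passed the filter only through the cells with Pdcd1 and Tnfrsf9 only through both together, and Cd160, Havcr2 and Tigit were too low to be tested. Tnfrsf9 was higher by 1.70 ± 0.20, at 9.01 to 96.8 (median 49.1) against 3.13 to 30.1 (median 9.91). Lag3 was higher by 1.42 ± 0.14 (90.7 against 26.1 in the median library), Tox by 1.26 ± 0.12, Tnfrsf4 by 0.96 ± 0.16 (302 to 602 against 122 to 321) and Ctla4 by 0.70 ± 0.13 (394 against 211). Tox did not overlap between the groups of cells, at 138 to 336 against 40.6 to 124. Icos did not pass (-0.12 ± 0.07, adjusted p 0.34 in edgeR). When CD4 cells with an Il2ra or Ikzf2 UMI were left out, only Tox and Lag3 were called, and Tnfrsf9 (0.91, adjusted p 0.55), Tnfrsf4 (0.58, adjusted p 0.18) and Ctla4 (0.33, adjusted p 0.82) were not. Tox2 (1.94), Ikzf2 (1.38) and Bcl6 (1.31), the last a factor of follicular helper T cells, were higher with Pdcd1, and 7 of 8 naive genes were lower.

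Counted by cell, 87.1% of Foxp3 cells, 50.7% of CD4 cells and 19.0% of CD8 cells had UMIs of 3 or more members. No member was seen in 0.336%, 9.52% and 33.5% of them. Thinned to 3000 UMIs a cell, the shares with 3 or more members were 76.8%, 35.7% and 7.57%, in the same order of gates. Without p21mTertCD replicate 1 the shares were 86.6%, 43.4% and 11.1%, and thinned 76.1%, 30.1% and 4.49%. In p21mTertCD replicate 1, 51.3% of CD8 cells and 72.1% of CD4 cells had 3 or more members, against 7.63% to 17.9% and 32.1% to 60.7% in the other libraries. Thinned, these were 19.9% and 52.3%, against 1.82% to 8.96% and 16.7% to 45.9%.

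Between genotypes, no member passed the test in the CD4 cells. edgeR was fitted to the 10 replicated libraries, and 5 of 9093 genes (0.0550%) were called between p21mTert and p21Het, 0 (0%) between p21mTert and p21mTertCD and 3 (0.0330%) between p21mTertCD and p21Het. In that order 5, 2 and 6 of 10 members had an unadjusted p under 0.05, as did 5.19%, 8.60% and 11% of all genes. DESeq2 called 0, 1 (Havcr2) and 2 members (Pdcd1 and Tnfrsf4), among 10, 8 and 57 genes. With no filter on low counts 4, 5 and 5 members were called, among 163, 451 and 516 genes. With the replicate block described below, Pdcd1 and Tnfrsf4 were called between p21mTert and p21Het. The median log2 fold change of the members was 0.74, -0.32 and 1.05, beside 0.00, 0.01 and -0.00 for all genes tested. With 1 library left out at a time these medians ran from 0.42 to 0.81, from -0.47 to -0.19 and from 0.66 to 1.38. The lowest of the first came without p21Het replicate 3, and 0.66 and -0.19 came without p21mTertCD replicate 1. The comparisons share their groups, so that they are not independent of each other.

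The values by library show where the CD4 groups lie. Pdcd1 was at 74.1 CPM in WT, at 43.2, 45.3 and 27.6 in the p21Het replicates, at 84.9, 93.4, 106, 63.9 and 52.7 in the p21mTert replicates, and at 248 and 91.7 in the p21mTertCD replicates. Tnfrsf4 was at 300.2 in WT, at 107, 198 and 182 in p21Het, at 226, 319.9, 381, 248 and 222 in p21mTert, and at 460.4 and 324 in p21mTertCD. For both genes, and for Tigit (0 to 5.59 against 5.99 to 11.4), every p21mTert library lay above every p21Het library, as did 4.87% of all genes in either direction. WT lay with p21mTert in both.

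Tox in CD4 cells was at 156 in WT, at 109.9, 81.3 and 63.3 in p21Het, at 163, 143, 194, 101 and 109.0 in p21mTert, and at 142 and 166 in p21mTertCD. It had the smallest p of the members between p21mTert and p21Het, with a log2 fold change of 0.75 ± 0.23 (p 0.0067, adjusted p 0.89, edgeR), and the groups overlap. Lag3 was at 38.4 in WT, at 10.5, 27.9 and 9.43 in p21Het, at 34.6, 59.9, 117, 33.8 and 21.6 in p21mTert, and at 77.9 and 93.1 in p21mTertCD. Ctla4 was at 229 ± 51.9 in p21Het (SD, n = 3), 264 ± 81.7 in p21mTert (n = 5) and 234 ± 93.1 in p21mTertCD (n = 2), and Icos at 435 ± 116, 401 ± 98.9 and 313 ± 88.3. For Ctla4 and Icos all groups overlap. In the later deposit alone 0 members were called in the CD4 gate, with a median difference of 0.69 between p21mTert and p21Het; the first deposit has 1 library of each genotype it holds.

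Havcr2 in CD4 cells rests on 1 library. It was at 76.5 in p21mTertCD replicate 1, on 375 UMIs, and at 0 to 8.64 in the other 10 libraries. Markers of the Havcr2-rich classes in those CD4 cells were summed. Those of cDC1 were at 2.45 CPM (1.75 to 6.09 in the other libraries), of patrolling monocytes at 8.77 (3.59 to 9.36), of cDC2 at 1.02 (0 to 1.44), of C1q macrophages at 15.1 (3.93 to 14.4) and of alveolar macrophages at 401 (11.9 to 459.9), with 5, 5, 3, 4 and 5 of 5 markers seen. Those of classical monocytes, where Havcr2 was at 25.5, were at 276 (102 to 213), with 5 of 5 seen. The part of these cells' RNA in the Havcr2 level was not tested. With p21mTertCD replicate 2 left out, so that replicate 1 stood alone, Pdcd1 and Havcr2 were called against both other genotypes, among 730 and 687 genes (7.54% and 7.09% of those tested). With replicate 1 left out, 0 members and 0 genes were.

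**Figure D3:**
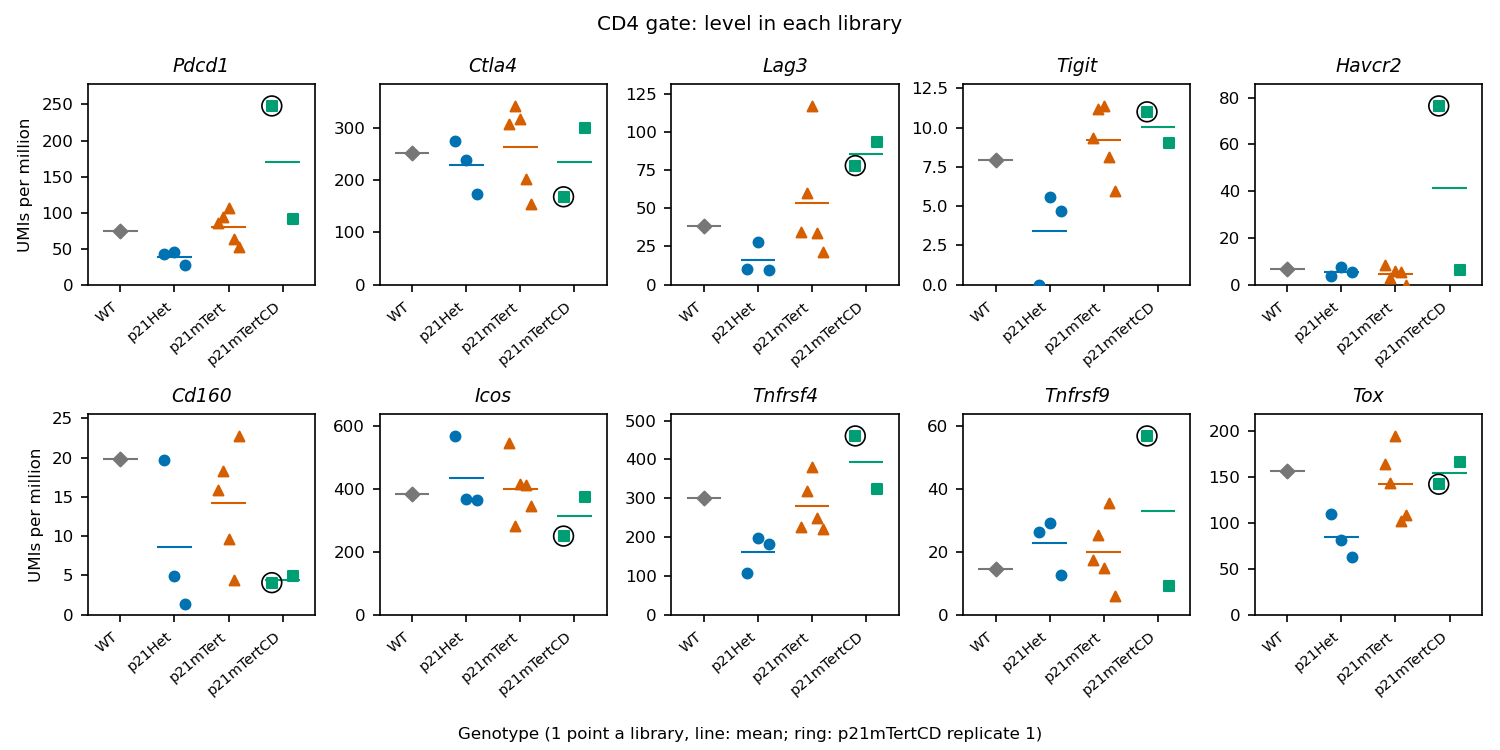
Level of each member in the CD4 gate (y axis, CPM) by genotype (x axis), with 1 point a library and a line at the group mean. The ringed point is p21mTertCD replicate 1, which is the highest library for Pdcd1, Havcr2, Tnfrsf4 and Tnfrsf9.

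In CD8 cells again no member passed. Between p21mTert and p21Het 3 of 9910 genes (0.0303%) were called, and 0 (0%) in each comparison with p21mTertCD. Members with an unadjusted p under 0.05 numbered 0 between p21mTert and p21Het, 2 between p21mTert and p21mTertCD and 4 between p21mTertCD and p21Het, beside 3.94%, 10.5% and 14.9% of all genes. DESeq2 called 0, 0 and 1 (Havcr2), among 4, 32 and 126 genes. Lag3 was at 3.01 in WT, at 7.23, 9.46 and 13.4 in p21Het, at 12.7, 8.05, 36.8, 15.7 and 16.4 in p21mTert, and at 102 and 7.29 in p21mTertCD. Pdcd1 was at 12.0 in WT, at 6.63, 19.3 and 18.9 in p21Het, at 8.76, 18.3, 33.9, 20.7 and 30.9 in p21mTert, and at 70.2 and 21.9 in p21mTertCD. In both genes p21mTertCD replicate 1 is the highest library and replicate 2 lies among the others.

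Cd160 in CD8 cells was at 24.5 in WT, at 16.9, 16.5 and 15.1 in p21Het, at 25.4, 37.4, 23.4, 17.7 and 51.4 in p21mTert, and at 59.9 and 16.8 in p21mTertCD. Of all genes, 4.45% separated the p21mTert from the p21Het libraries, in either direction. Havcr2 did so (0 to 2.47 in p21Het against 2.60 to 8.42 in p21mTert, on 11 and 60 UMIs). For Cd160 too, every p21mTert library lay above every p21Het library. Its log2 fold change of 0.88 ± 0.48 had the smallest p of the members (0.098, adjusted p 1.00, edgeR). Tox was at 51.1 in WT, at 69.4 ± 4.21 in p21Het (SD, n = 3), 79.8 ± 20.5 in p21mTert (n = 5) and at 129 and 50.5 in p21mTertCD.

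The median member difference in CD8 cells was 0.55 between p21mTert and p21Het, -0.89 between p21mTert and p21mTertCD and 1.37 between p21mTertCD and p21Het, beside 0.00, 0.01 and -0.01 for all genes. The first of these ran from 0.22 (without p21Het replicate 1) to 0.76 (without p21mTert replicate 1) with 1 library left out at a time, and was 0.25 without p21mTert replicate 3. Without p21mTertCD replicate 1 the latter differences were 0.41 and -0.08, both of the opposite sign. With replicate 1 as the single p21mTertCD library, 5 and 7 members were called, among 1282 and 1637 genes (12.4% and 15.9% of those tested). With replicate 2 as the single one 0 members were called, among 17 and 8 genes. In the later deposit alone the median between p21mTert and p21Het was 0.42 and 0 members were called.

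**Figure D4:**
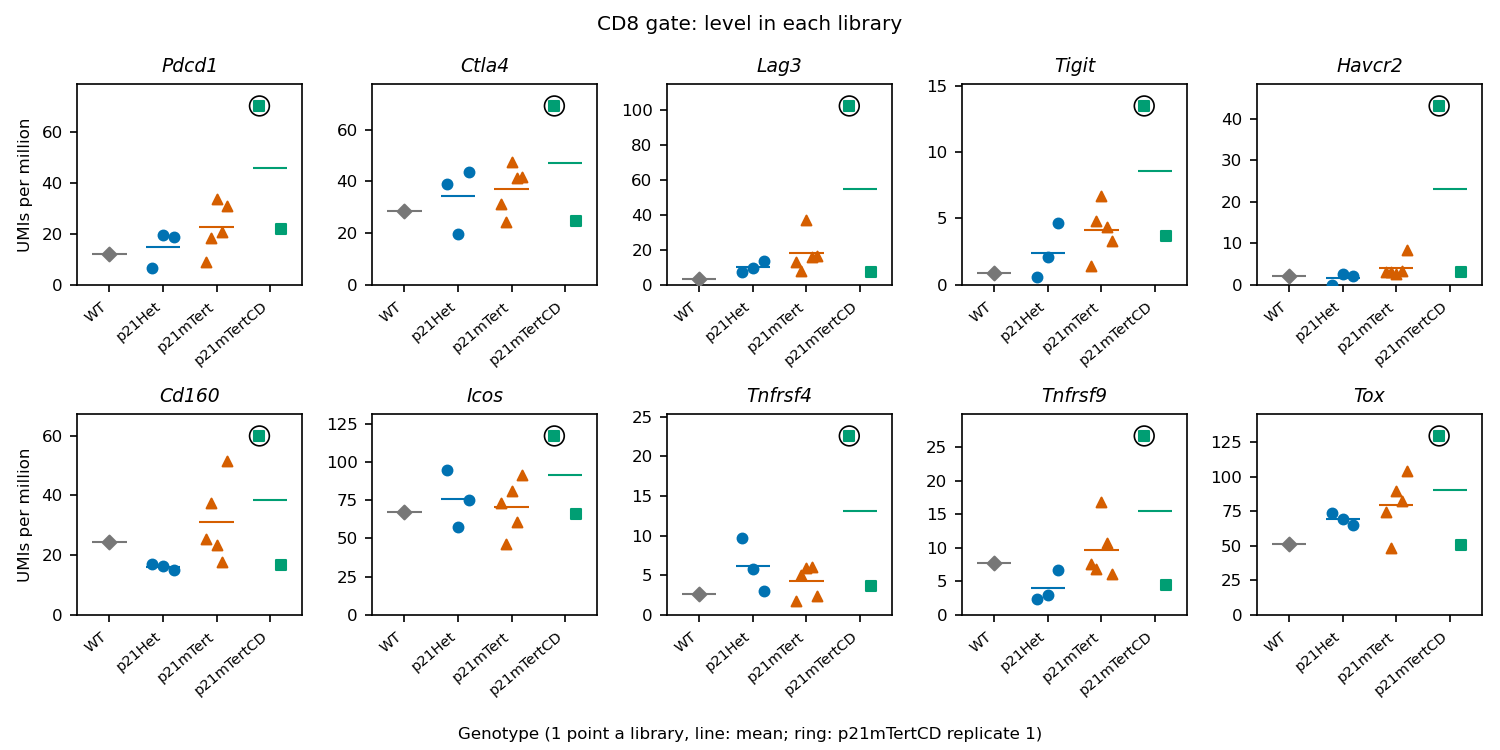
Level of each member in the CD8 gate (y axis, CPM) by genotype (x axis), with 1 point a library and a line at the group mean. The ringed p21mTertCD replicate 1 is the highest of 11 libraries in all 10 panels, and the other p21mTertCD library lies among the other genotypes.

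Foxp3 cells, with 27 to 113 cells in each of the 9 replicated libraries that entered the fit, showed no called member among the 7 tested (Cd160, Havcr2 and Tigit were too low). Of 4765 genes 1 (0.0210%) was called between p21mTert and p21Het, and 0 (0%) in the other comparisons. Unadjusted p-values under 0.05 were found for 2, 0 and 1 members and for 4.03%, 3.02% and 4.53% of all genes. DESeq2 called 0 members in each, among 1, 0 and 0 genes. Ctla4 was at 929 in WT, at 1733, 1201 and 1399.8 in p21Het, at 1415, 879.6, 979 and 1137 in p21mTert replicates 1 to 4, and at 954 and 1018 in p21mTertCD. Its log2 fold change between p21mTert and p21Het was -0.37 ± 0.14 (p 0.014, adjusted p 1.00, edgeR), and the groups overlap. Icos was at 505 in WT, at 816, 533 and 652 in p21Het, at 574, 350.4, 539 and 503 in those p21mTert replicates, and at 569 and 665 in p21mTertCD, again with overlap. No member separated the p21mTert from the p21Het libraries, as 5.18% of all genes did. In this gate p21mTertCD replicate 1 was the highest library for 0 members.

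In all kept cells summed, which mix cells of every class, no member was called either. More T cells and more RNA per T cell cannot be told apart in these sums. Of 17503 genes 2 (0.0114%) were called between p21mTert and p21Het, 1 (0.00571%) between p21mTert and p21mTertCD and 21 (0.120%) between p21mTertCD and p21Het. Members with an unadjusted p under 0.05 numbered 1, 3 and 6, beside 7.20%, 16.0% and 6.26% of all genes. DESeq2 called 0, 1 and 1 members (Pdcd1 in both), among 31, 587 and 183 genes. Cd160 was at 1.40 to 3.71 in p21Het and 4.01 to 7.55 in p21mTert, without overlap (0.0127 unadjusted, 0.68 adjusted p in edgeR). Tox, at 9.56 to 13.5 and 13.7 to 25.0, did not overlap either, as was the case for 3.30% of all genes. Pdcd1 was at 43.7 in p21mTertCD replicate 1 and at 3.91 to 11 in the other 10 libraries. T cells were 33.0% of its kept cells against at most 20.8% in the others, and their part in the result was not tested. Of the fixed lists, the genes called in any genotype comparison were Eomes (1.60) and Ccl5 (1.94). Both were higher in all kept cells of p21mTertCD than of p21Het (adjusted p 0.0457 for both, edgeR). Ccl5 was not called with the term for the deposit or with Scrublet doublets left out. Neither gene was called with RLE normalization, in the later deposit alone or with the replicate block. Without p21mTertCD replicate 1 they were at 1.49 (adjusted p 0.26) and 1.61 (adjusted p 0.29), and 0 of 17974 genes were called in place of 21. With 1 library left out at a time both stayed called without p21Het replicate 3 or p21mTertCD replicate 2, Eomes also without p21mTert replicate 1, and neither without any other.

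The make-up of the T cells was compared over libraries with 2-sided exact permutation tests of p21mTert (n = 5) against p21Het (n = 3), whose smallest possible p is 0.0179. None of 4 shares passed after Benjamini-Hochberg adjustment. With 4 tests, a share at the smallest possible p could not pass alone, however clearly its libraries separated. The adjusted values therefore cannot decide whether any share by itself differs. Before adjustment no share reached that smallest p, and the lowest exact p was 0.0893, for the Gzmk share. Cells with a Gzmk UMI were 29.1% ± 12.3 (SD) of the CD8 cells in p21mTert and 13.7% ± 3.84 in p21Het (exact p = 0.0893, adjusted p = 0.262). By library they were 10.3%, 17.9% and 13% in p21Het and 13.2%, 30.3%, 38.3%, 20.7% and 42.9% in p21mTert, with p21mTert replicate 1 inside the p21Het range. WT had 10.9% and p21mTertCD 75.7% and 19.6%. Thinned to 3000 UMIs a cell, the means were 22% ± 8.98 in p21mTert and 9.31% ± 4.49 in p21Het, with 106 and 38 shallower cells left out. The Foxp3 share of T cells was 4.59% ± 1.76 against 7.01% ± 2.26 (exact p = 0.143, adjusted p = 0.262). The CD8 share was 39.7% ± 9.49 against 30.9% ± 3.01 (exact p = 0.196, adjusted p = 0.262) and the CD4 share 21.3% ± 5.42 against 24.8% ± 3.61 (exact p = 0.357, adjusted p = 0.357).

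**Figure D5:**
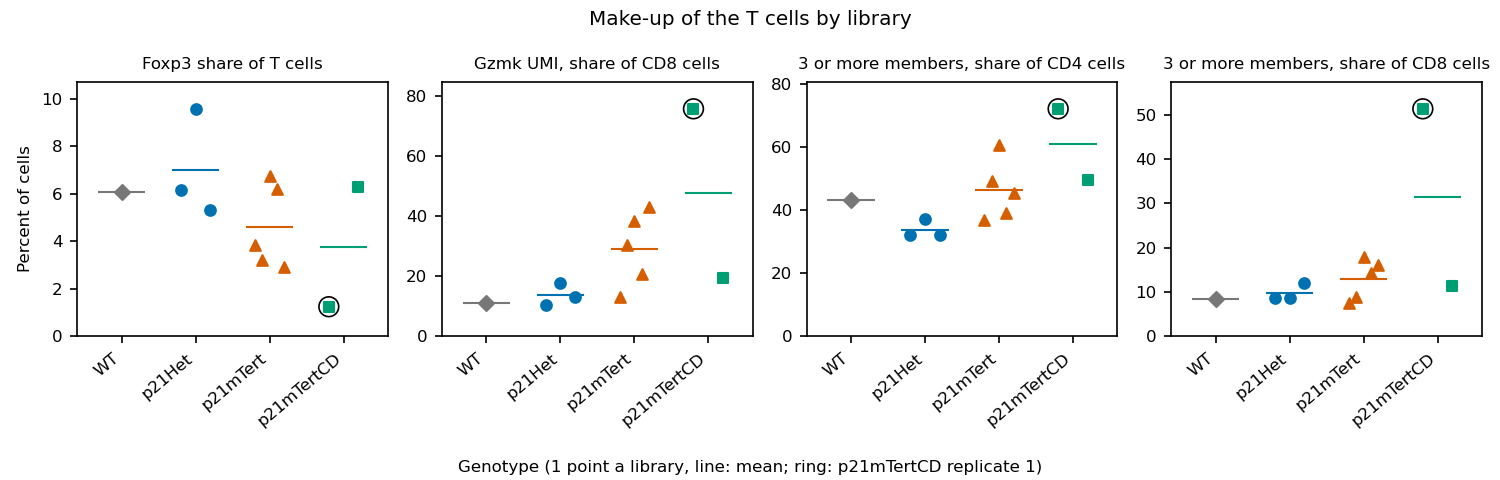
Shares of cells (y axis, percent) by genotype (x axis), unthinned, with 1 point a library and a line at the group mean. The ringed p21mTertCD replicate 1 has the lowest Foxp3 share (1.25%) and the highest shares of CD8 cells with a Gzmk UMI (75.7%) and with 3 or more members (51.3%).

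Positions are those of GENCODE M21 (GRCm38). For Ctla4 and Tnfrsf4 they give another start than the RefSeq start used for the sequences above, and the Ctla4 window lies within the gene as placed here. Icos and Ctla4 lie on the same strand of chromosome 1 (60977927 to 61000320 and 60887000 to 60915832), and Pdcd1 on the other strand of that chromosome (94038305 to 94052553). Tnfrsf4 (156013843 to 156016612), Tnfrsf9 (150914562 to 150946102) and Tox (6686353 to 6991557) are on chromosome 4, Lag3 on 6 (124904361 to 124911705), Cd160 on 3 (96798763 to 96829351), Havcr2 on 11 (46454935 to 46481255) and Tigit on 16 (43648867 to 43664146). Pdzk1 overlaps Cd160 and Gm11802 overlaps Tox on the other strand, while Rpl18-ps1 lies within Ctla4 and Gm37039 within Icos on the same strand.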

How the data were processed

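The authors' deposited matrices hold raw UMI counts per gene and barcode of 11 libraries. Per the labels' protocols, total lung cells went into the 10x 3′ assay and reads were mapped to mm10 with Cell Ranger, whose version is 2.3 in the series text and 3.1.0 in the matrix headers. The normalization the series describes is not in these counts. Barcodes were filtered at 1000 to 30000 UMIs and 14% mitochondrial UMIs, and cells were gated by marker UMIs. Doublets stayed in. Scrublet (scanpy 1.11.5) by its own threshold marked 0% to 3.59%, so that for an alternative the highest scores were marked at 0.8% per 1000 barcodes (4.55% to 8.42%).

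Counts were summed by library and gate. The quasi-likelihood test of edgeR 4.0.16 (R 4.3.3) followed TMM scaling and the filterByExpr filter, with p adjusted over all genes tested; the library is the replicate, and one with under 20 cells in a gate was left out. WT entered no genotype test. DESeq2 1.42.0 was an alternative, as were RLE normalization, no filter, cells of at least 2000 UMIs, terms for deposit and replicate number, the later deposit alone, stricter gates and leaving out each library. The fits were tested on simulated data. Shares used scipy 1.17.1 (Python 3.11.15, numpy 2.4.6, pandas 2.3.3, matplotlib 3.10.9).

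The members, lists and tests were chosen with earlier results of these data known. The rule gave each member's level, log2 fold changes for called members and for the one of smallest p between p21mTert and p21Het in each gate, every tested member within libraries, and for the lists counts with up to 4 called genes of largest change. Depth limits sparse genes: 3 counts are the floor for a count of 0.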

Additional observations from a re-analysis of the deposited data

Results flagged for a closer look

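Among the 5 p21mTert libraries, 4 of 44 values had 1 library far from the other 4 by Dixon's criterion at 95%, which chance meets in about 1 of 20 groups. Lag3 in CD8 cells was at 36.8 CPM in p21mTert replicate 3 (99 UMIs) and at 8.05 to 16.4 in the others. Lag3 in all kept cells was at 13.9 in the same library (687 UMIs) and at 4.94 to 6.39 in the others. Havcr2 in CD8 cells was at 8.42 in p21mTert replicate 5, on 18 UMIs, against 2.60 to 3.34. Cd160 in Foxp3 cells was at 3.89 in p21mTert replicate 3, on 2 UMIs, and at 0 in the others. With the others at 0, any UMI in 1 library would have been flagged.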

How the results depend on the processing

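With no filter on low counts, 4, 5 and 5 members were called in CD4 cells (p21mTert minus p21Het, p21mTert minus p21mTertCD, p21mTertCD minus p21Het) in place of 0, among 163, 451 and 516 genes called in all, and 2 were called lower in Foxp3 than in CD4 cells. DESeq2 called 1 and 2 members in the p21mTertCD comparisons of CD4 cells, 1 in CD8 cells (p21mTertCD minus p21Het) and 1 in each p21mTertCD comparison of all kept cells. Leaving out 1 library at a time, the calls ran from 0 to 2 in both p21mTertCD comparisons of CD4 cells, 0 to 5 and 0 to 7 in those of CD8 cells, 0 to 1 in both of all kept cells, 5 to 8 lower in CD8 than CD4 cells, 0 to 1 lower in Foxp3 than CD4 cells and 6 to 9 higher with Pdcd1 in CD8 cells; the counts above 0 between genotypes came without p21mTertCD replicate 2. The lone p21mTertCD library is then assumed to vary like the other groups. Without p21mTertCD replicate 1 or 2, 35.0% and 31.1% of all genes tested were called in either direction between CD8 and CD4 cells. Between Foxp3 and CD4 cells these shares were 21.3% and 17.5%, and with Pdcd1 in CD8 cells 19.2% and 11.9%. The counts within libraries include members that passed the filter only through the cells where they are higher, and are a description.

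The gate of 4 times every other class, added after seeing the data, gave 5 lower calls in CD8 than CD4 cells, 1 lower in Foxp3 than CD4 cells and 5 higher with Pdcd1 in CD8 cells. Without CD4 cells holding Il2ra or Ikzf2 UMIs there were 4 lower calls in CD8 than CD4 cells and 2 higher with Pdcd1 in CD4 cells; the differences of Lag3, Tox and Tnfrsf9 between CD8 and CD4 cells became 0.309, 0.002 and 0.133, and that of Lag3 between Foxp3 and CD4 cells 0.714. Icos between CD8 cells with and without Gzmk became 0.014 and 0.02 without p21mTert replicates 4 and 5 (-0.132 to 0.02 over the libraries left out). The cause of these changes was not tested. For these gates, and for the fits within libraries with no filter, no share of all genes called is given. Their counts of members are therefore a description.

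Replicate numbers are not stated to pair samples. Same-numbered libraries of the later deposit correlated at -0.42 to 0.10 in their deviations from the group means. In groups of 2 libraries these deviations mirror each other, so the values cannot decide whether the numbers pair libraries. With the replicate block, 2 members (Pdcd1 and Tnfrsf4) were called in CD4 cells between p21mTert and p21Het, among 28 genes. The gate with no UMI of any other class marker left too few cells to be fitted. In all, 29 values for whole comparisons moved and 424 stayed; RLE normalization, leaving out Scrublet doublets, the term for the deposit and the later deposit alone moved none of the counts of members called.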

Other observations

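Tox is also known from maturing thymocytes, and the genes Rag1 and Dntt of immature lymphocytes, looked at after seeing the data, had UMIs in 77 of 4603 CD8 cells (1.67%) and 165 of 3323 other T cells (4.97%), but in 8 CD4 cells and 0 Foxp3 cells. Of those 77 CD8 cells 33 came from p21Het replicate 2. Tox was at 44.9 CPM in the 77 cells, on only 20 UMIs, and at 80.5 in the rest of the CD8 cells. Without p21mTertCD replicate 1 these levels were 41.5 and 68.6, and the difference was not tested. In the other T cells Tox was at 71.1 CPM with either gene (55 UMIs) and at 74.6 without, or 71.6 and 70.1 without p21mTertCD replicate 1.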
